A study of Mus musculus with 12 samples.

Results

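Binding of the nuclear receptor Rev-Erba was examined at 7 genes that govern sterol and carbohydrate-driven lipid synthesis: Insig1, Insig2, Mlxipl, Hmgcs1, Sc5d, Stard4 and Msmo1. The members were every peak whose annotated gene in the authors' lists is 1 of these 7. They came to 18 of the 11227 sites of the 4 °C list and 4 of the 2183 sites of the 29 °C list. Brown adipose tissue of C57BL/6 mice was used after 1 week at 4 °C, a chronic cold exposure, or at 29 °C, which is thermoneutral for mice. HA-RevErba mice, whose Rev-Erba carries an HA epitope tag, gave 4 libraries per temperature, and wild-type (WT) mice without the tag gave 2 per temperature. All 12 libraries were made by chromatin immunoprecipitation with anti-HA magnetic beads and sequencing (ChIP-seq), so the WT libraries measure the background of the same beads. The sources used here give neither the ages of the mice nor the promoter driving the tagged receptor.

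Cells sense sterols in the membrane of the endoplasmic reticulum. When sterols are plentiful, the INSIG proteins hold the complex of SCAP and SREBP there. When sterols fall, the complex moves to the Golgi, SREBP is cleaved, and its released part enters the nucleus and activates genes of cholesterol and fatty acid synthesis. ChREBP, encoded by Mlxipl, is a separate transcription factor that responds to glucose metabolites and acts with its partner MLX on glycolytic and lipogenic genes. Rev-Erba is a repressor of the circadian clock, which binds AGGTCA half-sites and recruits corepressors, and lipid synthesis is among the processes it is known to time. Brown fat, which burns lipid to make heat, also makes fatty acids in the cold.

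The libraries held between 27.0 and 37.3 M (mega) aligned reads. All binding values came from 4 pools, 1 per genotype and temperature, so no result below has a replicate check between animals and none has a p-value. The unit is FPKM, which here is not expression: it counts reads in the 200 bp around a peak, scaled to the window's length and the pool's depth. Recovered pool totals were 63.8 M (4 °C) and 60.8 M (29 °C) reads for HA-RevErba, and 27.1 M (4 °C) and 25.1 M (29 °C) for WT. These are 49.8% and 49.2% of the aligned reads of the HA-RevErba libraries, and 43.9% and 39.5% of those of the WT libraries. The step that left out the other reads is not stated, and its part in the values was not tested. Intervals in parentheses are exact 95% Clopper-Pearson intervals of a ratio of reads. They cover counting error only and hold no spread between animals. Without molecular identifiers several reads can come from 1 molecule, so the intervals may be too narrow even for counting error. In bulk tissue, fewer cells with a bound site and less binding per cell cannot be told apart. Of 8 brown adipocyte marker genes, 5 had a site at 4 °C, among them Ucp1 and Cidea, while 0 of 4 macrophage, 4 of 4 endothelial and 1 of 4 skeletal muscle marker genes did, beside 20.9% of all protein-coding genes. In the 29 °C list 2 brown adipocyte and 2 endothelial marker genes had a site, and none of the others, beside 6.05% of all protein-coding genes. A site beside a gene is no measure of its expression, so the cell types behind the signal were not tested.

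None of the 18 sites lay in a promoter as annotated, against 3.82% of all 4 °C windows. Promoter sequences are shown to let the letters outside the peaks be read. They are the 250 bases before the gene's start from RefSeq, build GRCm38.p6, while the peaks are on build mm9. Promoters of 6 of the 7 genes, 9 in all, were searched on both strands. Capitals mark AGGTCA (14% of all 32851 promoters hold it), the E-box CACGTG (6.02%), which bHLH factors bind, and TCACNCCAC (1.05%), a form of the sterol regulatory element. Insig1 and Hmgcs1 are shown because only they hold AGGTCA among the 9 promoters, and Mlxipl because its sites lay nearest to a start.
Insig1, chr5:28071162-28071411, plus strand: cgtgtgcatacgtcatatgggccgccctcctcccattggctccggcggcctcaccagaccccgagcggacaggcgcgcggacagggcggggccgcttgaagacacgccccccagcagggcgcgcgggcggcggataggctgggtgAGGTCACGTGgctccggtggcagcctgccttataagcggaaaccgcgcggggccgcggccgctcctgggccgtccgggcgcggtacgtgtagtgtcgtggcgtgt
Hmgcs1, chr13:119690101-119690350, plus strand: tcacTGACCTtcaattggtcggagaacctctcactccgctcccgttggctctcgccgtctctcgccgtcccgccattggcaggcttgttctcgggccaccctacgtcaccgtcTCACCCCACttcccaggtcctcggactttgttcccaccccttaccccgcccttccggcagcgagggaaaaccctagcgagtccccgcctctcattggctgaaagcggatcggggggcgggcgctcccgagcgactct
Mlxipl, first of 2 promoters, chr5:135089640-135089889, plus strand: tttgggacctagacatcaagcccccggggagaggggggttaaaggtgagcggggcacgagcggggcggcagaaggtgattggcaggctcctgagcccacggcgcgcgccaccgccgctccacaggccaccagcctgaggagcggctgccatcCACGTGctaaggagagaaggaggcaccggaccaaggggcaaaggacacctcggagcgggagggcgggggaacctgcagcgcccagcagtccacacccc
Mlxipl, the other promoter, chr5:135106641-135106890, plus strand: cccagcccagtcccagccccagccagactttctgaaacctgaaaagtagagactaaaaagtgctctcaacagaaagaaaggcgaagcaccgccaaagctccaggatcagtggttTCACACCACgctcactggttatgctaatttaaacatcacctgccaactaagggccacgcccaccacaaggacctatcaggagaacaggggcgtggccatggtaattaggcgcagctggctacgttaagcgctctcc
In Insig1 the half-site and the E-box overlap, at 105 to 100 and 101 to 96 bases before the start. In Hmgcs1 the half-site, read on the minus strand, begins 246 bases before the start, and the sterol element lies at 137 to 129 bases before it. One Mlxipl promoter holds an E-box and the other a sterol element. In Sc5d an E-box lies at 98 to 93 bases before the start, and none of these motifs was in the 3 Insig2 promoters or in that of Msmo1. A direct repeat of AGGTCA with 2 bases between, the paired site of Rev-Erba, was in none of the 9 (0.00913% of all promoters). These matches are descriptions of the letters, and no peak listed for these genes was annotated to a promoter.

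All 7 genes had at least 1 site in the 4 °C list, and Insig1, Hmgcs1 and Stard4 also had sites in the 29 °C list. Among 21900 protein-coding genes, 20.9% had a site in the 4 °C list and 6.05% in the 29 °C list. The genes were chosen with earlier results of these lists known, so the count of 7 is no test. Hmgcs1 had 6 sites, Stard4 5, Insig1 and Mlxipl 2 each, and Insig2, Sc5d and Msmo1 1 each. Of genes in the 4 °C list 8.16% had 5 or more. The Hmgcs1 sites lay on 2 copies of 1 arrangement, 4 on the first and 2 on the second. On 1 copy alone that gene would have fewer than 5. By annotation, 8 of the 18 sites were intergenic, 6 intronic, 2 at a transcript end and 2 in a 3′ UTR. Of the 18, 4 overlapped a site of the 29 °C list by at least 1 bp, or 2 of 12 without Hmgcs1, against 14.9% of all 4 °C windows.

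**Figure D1:**
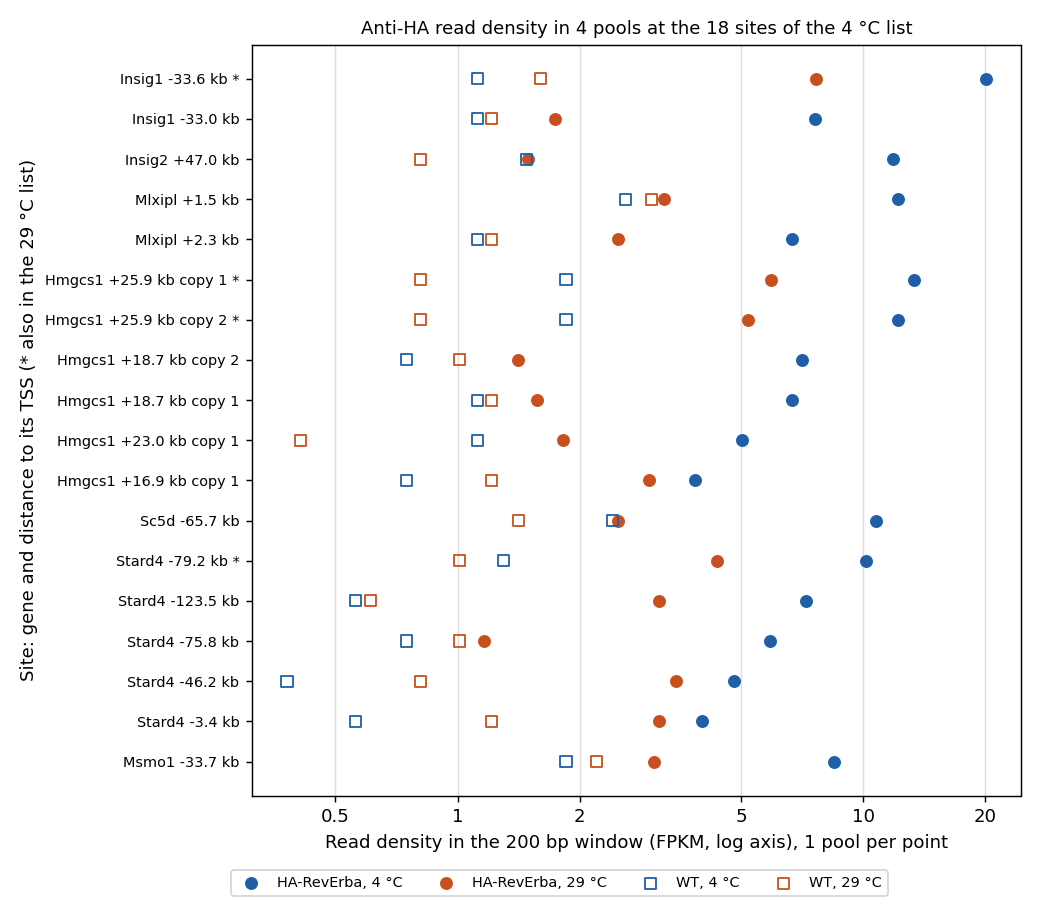
Read density (FPKM, log axis) of the 4 pools at each of the 18 sites, HA-RevErba as filled circles and WT as open squares, 4 °C in blue and 29 °C in orange. The HA-RevErba 4 °C circle is the rightmost at each site, and the 29 °C circle lies close to the WT squares at Mlxipl 1.5 kb, where the values were 3.22 and 3 FPKM.

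Insig1, which encodes the INSIG protein that SREBP itself induces, had the strongest single window of the group, with the Hmgcs1 copies counted apart. It was intergenic, -33.6 kb from the start of the Insig1 transcript (TSS), at chr5:28364273-28364473 on mm9, and ranked 438 of 11227 by the authors' peak score. The HA-RevErba pools had 20.01 (4 °C) and 7.66 FPKM (29 °C), and the WT pools 1.12 and 1.60 in the same order. Binding was thus lower at 29 °C but above WT at both temperatures, and the 4 °C to 29 °C ratio was 2.61 (2.05 to 3.35). A second Insig1 window began 576 bp away (chr5:28364849-28365049). Its HA-RevErba values were 7.62 (4 °C) and 1.74 FPKM (29 °C), with WT at 1.12 and 1.21, which gave a ratio of 4.40 (2.73 to 7.43). At 29 °C this second window was near background: its HA-RevErba to WT ratio was 1.44 (0.564 to 4.37), while that of the stronger window was 4.80 (2.34 to 11.4). The intervals of the 2 windows overlapped for both kinds of ratio.

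Insig2, which encodes the other INSIG protein, had a single intergenic site at 47.0 kb (chr1:123177173-123177373). There the HA-RevErba pools had 11.85 (4 °C) and 1.49 FPKM (29 °C), while WT had 1.48 and 0.81. The cold value stood apart from the other 3, and the ratio of 8 (4.89 to 13.9) was the largest of the 18 sites. It rests on 18 reads at 29 °C, where the HA-RevErba to WT ratio was 1.86 (0.612 to 7.54). Of all 4 °C windows, 96.0% had a lower ratio.

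Mlxipl had both of its sites in the first intron, 815 bp apart. The stronger, at 1.5 kb (chr5:135584135-135584335), gave 12.16 (4 °C) and 3.22 FPKM (29 °C) in HA-RevErba, and 2.59 and 3 FPKM in WT. Here the 29 °C HA-RevErba pool was no higher than WT beyond counting error, with a ratio of 1.07 (0.578 to 2.1). The WT 29 °C value itself was high for the list: 97.6% of 4 °C windows had a lower one. The 4 °C to 29 °C ratio of HA-RevErba was 3.79 (2.65 to 5.53). The weaker site, at 2.3 kb (chr5:135584950-135585150), lies in a B4 SINE repeat. It had 6.68 and 2.48 FPKM, against 1.12 and 1.21 in WT, a ratio of 2.70 (1.76 to 4.24).

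Hmgcs1 encodes the cytosolic HMG-CoA synthase, an early enzyme of cholesterol synthesis. All 6 of its windows lay on chr13_random, the unplaced part of chromosome 13 in mm9, which held 6 of the 13 windows of the 4 °C list on unplaced contigs. The windows fell into 2 copies of 1 arrangement, whose start sites were 193.9 kb apart, with 4 windows on the first copy and 2 on the second. A window at 25.9 kb appeared on both copies, with distances to the start that differed by 4 bp. Its values were 13.34 (4 °C) and 5.93 (29 °C) FPKM on the first copy (chr13_random:106405-106605) and 12.16 and 5.19 on the second (chr13_random:300311-300511). In WT each copy had 1.85 (4 °C) and 0.81 FPKM (29 °C). The copies were thus alike in all 4 pools, with ratios of 2.25 (1.70 to 3.01) and 2.35 (1.74 to 3.20). Both were also in the 29 °C list.

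A window at the Hmgcs1 transcript end, at 18.7 kb, was also doubled, its distances differing by 18 bp. It had 6.68 and 1.57 FPKM on the first copy, against 1.12 and 1.21 in WT, and 7.07 and 1.41 on the other, against 0.75 and 1.01. The ratios were 4.27 (2.57 to 7.43) and 5.05 (2.98 to 9.05), again alike between copies. With the reads of the copies added, the 25.9 kb site had 25.49 FPKM at 4 °C and 11.11 at 29 °C, and the transcript-end site 13.74 and 2.97. In that sum the 25.9 kb site would stand above the Insig1 site at 4 °C. On build GRCm38.p6 the promoters searched held a single Hmgcs1 promoter, on chromosome 13. Whether the copies are 1 locus in these mice was not tested. With each pair of copies counted as 1 site, the 18 sites at 4 °C become 16. Ratios of at least 2 then go from 15 to 13, and shared sites from 4 to 3. The aligner logs list no read as aligned more than once, and the sources used here do not give the placing of reads that match both copies. The copies are not independent sites.

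The 25.9 kb Hmgcs1 site lies beyond the transcript end, in intron 2 of the neighbouring kinase gene Nim1k. Over WT its summed reads were 6.91 (4.40 to 11.5) at 4 °C and 6.96 (3.43 to 16.5) at 29 °C, so relative to the WT pool of each temperature it was no lower at 29 °C. WT itself gave a 4 °C to 29 °C ratio of 2.31 (0.667 to 10.1) in each of these windows. The transcript-end site had 7.45 (3.95 to 15.8) and 1.35 (0.673 to 2.94). Another 2 windows were listed on the first copy only. That at 23 kb, in intron 3 of Nim1k, had 5.03 and 1.82 FPKM, against 1.12 and 0.41 in WT. That at 16.9 kb, in the 3′ UTR of Hmgcs1, had 3.85 and 2.97, against 0.75 and 1.21. Their ratios were 2.77 (1.69 to 4.73) and 1.30 (0.827 to 2.05), so the 3′ UTR window did not differ between temperatures beyond counting error.

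Msmo1 and Sc5d encode oxidising enzymes of the late sterol pathway: the C4-methyl sterol oxidase and the sterol C5-desaturase. Each had 1 site, in the 4 °C list only and inside another gene. The Msmo1 site, at -33.7 kb (chr8:67245992-67246192), lies in intron 5 of Klhl2, a ubiquitin ligase adaptor gene. HA-RevErba values were 8.48 (4 °C) and 3.05 FPKM (29 °C), with 1.85 and 2.20 in WT, a ratio of 2.78 (1.90 to 4.16). The Sc5d site, at -65.7 kb (chr9:42137975-42138175), lies in the 3′ UTR of Tecta, which encodes a protein of the inner ear. It had 10.75 and 2.48 FPKM, against 2.41 and 1.41 in WT, a ratio of 4.35 (2.92 to 6.70). At both sites the 29 °C pool was within counting error of WT, at 1.39 (0.693 to 3.02) and 1.77 (0.761 to 4.77) times WT. The annotation gives the nearest start site, so these peaks are not shown to act on Msmo1 or Sc5d.

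Stard4 encodes a soluble carrier that moves cholesterol between membranes. Its 5 sites, all intergenic and upstream, spread over chromosome 18 from -3.4 to -123.5 kb. The strongest, at -79.2 kb (chr18:33452613-33452813), was in both lists. HA-RevErba values were 10.13 (4 °C) and 4.37 FPKM (29 °C), with WT at 1.30 and 1.01, a ratio of 2.32 (1.67 to 3.26). The site at -123.5 kb had 7.22 and 3.14 FPKM against 0.56 and 0.61, and a ratio of 2.31 (1.57 to 3.46). Only 3.44 kb from the strongest, the site at -75.8 kb, in an L1 repeat, had 5.89 and 1.16 FPKM against 0.75 and 1.01. Its ratio of 5.11 (2.86 to 9.79) was the largest of the gene, and its 29 °C value was at background (1.16 times WT, 0.393 to 4.1). The interval of its ratio overlapped that of the neighbour.

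The remaining Stard4 sites, the nearest to the gene, were weaker and more alike between temperatures. At -46.2 kb the HA-RevErba pools had 4.79 (4 °C) and 3.46 FPKM (29 °C), and WT 0.38 and 0.81. At -3.4 kb (chr18:33376858-33377058) they had 4.01 and 3.14, against 0.56 and 1.21. The ratios were 1.38 (0.92 to 2.1) and 1.28 (0.824 to 2), so neither differed between temperatures beyond counting error. At 29 °C these sites were 4.33 (1.57 to 16.6) and 2.61 (1.10 to 7.56) times WT. Neither was in the 29 °C list, whose peaks exceed WT by at least 3.01 FPKM and 3.97-fold. The site at -46.2 kb was 2.65 FPKM over WT, short of the first value, and that at -3.4 kb, at 1.93 FPKM, short of both.

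**Figure D2:**
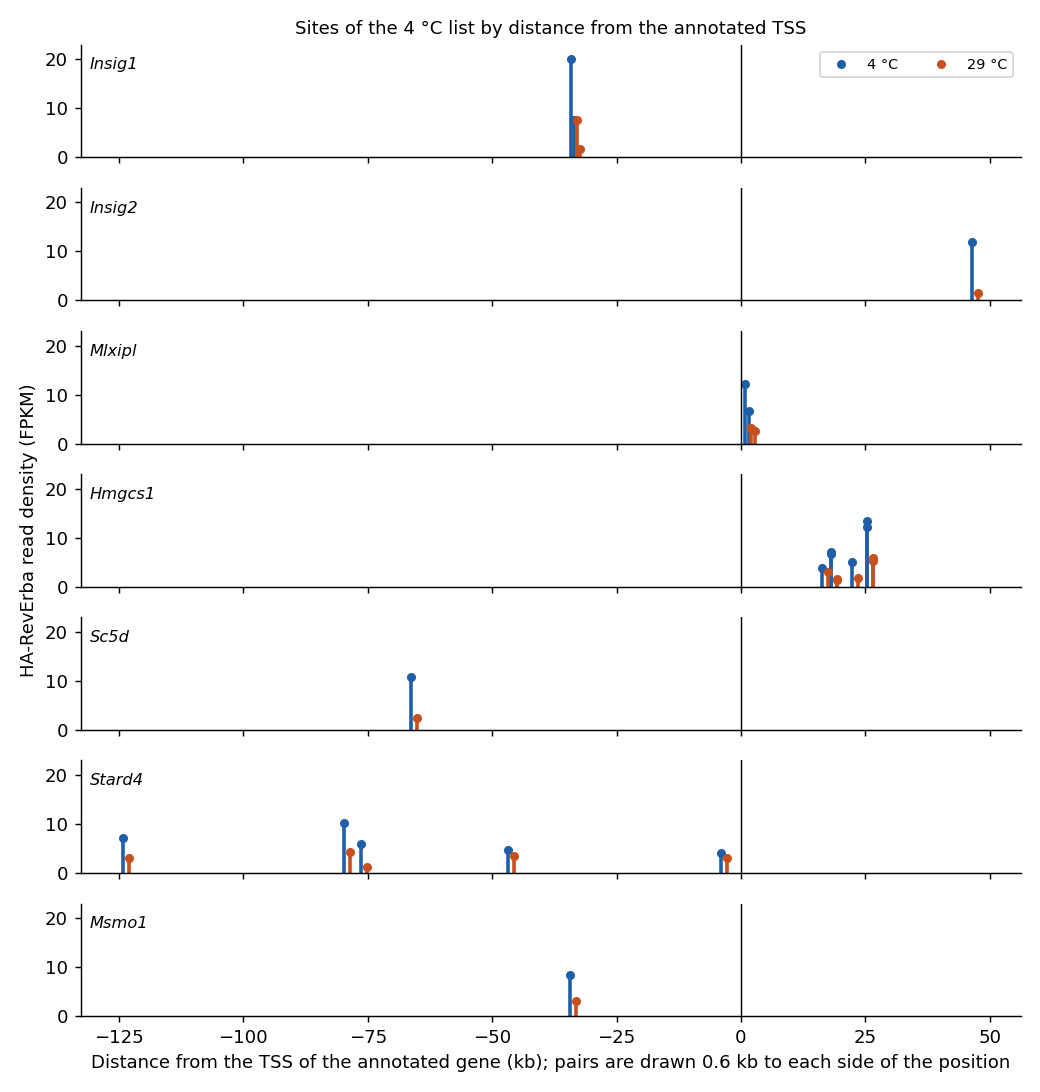
HA-RevErba read density (FPKM) at 4 °C (blue) and 29 °C (orange) against the distance from the annotated TSS (kb, at 0; negative is upstream), 1 panel per gene. Only the Mlxipl sites at 1.5 and 2.3 kb and the Stard4 site at -3.4 kb lie within 10 kb of a TSS.

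Most sites were far from the start of the gene they were assigned to. Of the 18, 3 lay within 10 kb, against 26.1% of all 4 °C windows. The median absolute distance was 29.5 kb, near the 27.5 kb of all 4 °C windows. For Insig1, Insig2, Sc5d and Msmo1 the listed site nearest to a start was that of Insig1 at -33.0 kb.

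HA-RevErba density was higher at 4 °C at all 18 sites, as at 98.7% of all 4 °C windows, a list selected on 4 °C signal. A ratio of at least 2 was found at 15 of 18, against 83.4% of all 4 °C windows, and an interval above 1 at 15 of 18, against 95.4%. These shares are near the background or below it. The median ratio was 2.74, with a range of 1.28 to 8, against 3.05 over all 4 °C windows (10th to 90th percentile 1.73 to 5.76). The 36 sites of 12 fatty acid synthesis genes had a median of 3.09, and the 12 sites of the clock activators Arntl, Clock and Npas2 had 2.81. No test of these differences could be made. What set the clock sites apart in level was the density itself, with medians of 18.6 FPKM (4 °C) and 6.17 FPKM (29 °C), where the 18 sites had 7.42 and 3.01.

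Scaling the 29 °C pool by WT reads gave other ratios, depending on the windows used. Every set of windows used was itself selected on WT reads. All 4 °C windows were listed for HA-RevErba exceeding WT at 4 °C, so their choice depends on the WT reads at 4 °C. The 29 °C windows were listed for exceeding WT at 29 °C, and shared windows at both temperatures. Shared windows had median WT values of 1.48 (4 °C) and 1.01 FPKM (29 °C), against 1.12 and 1.21 over all 4 °C windows. The part of this selection in the factors was not tested. With WT reads made equal over all 4 °C windows, the factor was 1.02 and all 18 ratios stayed above 1. With WT reads made equal over shared windows (a factor of 1.44), 7 of the 18 sites had a ratio of at least 2, against 55.4% of all 4 °C windows. With those of all 29 °C windows (1.71), 7 did, against 39.7%. The same 7 sites had it under both factors: Insig1 (-33.0 kb), Insig2, Mlxipl (1.5 kb), Hmgcs1 (both copies at 18.7 kb), Sc5d and Stard4 (-75.8 kb). Each scaling divides every ratio by the same number, so these are simply the 7 sites with the largest ratios. That they recur under every scaling run is therefore no check. The 3 sites with intervals that include 1 had ratios below 1 under the factors of 1.44 and 1.71. That left 15 of 18 above 1, against 95% (factor 1.44) and 90.5% (factor 1.71) of all 4 °C windows.

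Those 3 sites were also the only ones of the 18 under 5 FPKM at 4 °C. Of the 2710 windows of the 4 °C list under 5 FPKM, 8.45% had an interval that includes 1. This limit of 5 FPKM was chosen after the values were seen. At the other end, the 4 sites in both lists had ratios within a narrow range, from 2.25 to 2.61, with a median of 2.33, against 1.88 over all 1670 shared windows. Of these 4, 2 are the copies at Hmgcs1.

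**Figure D3:**
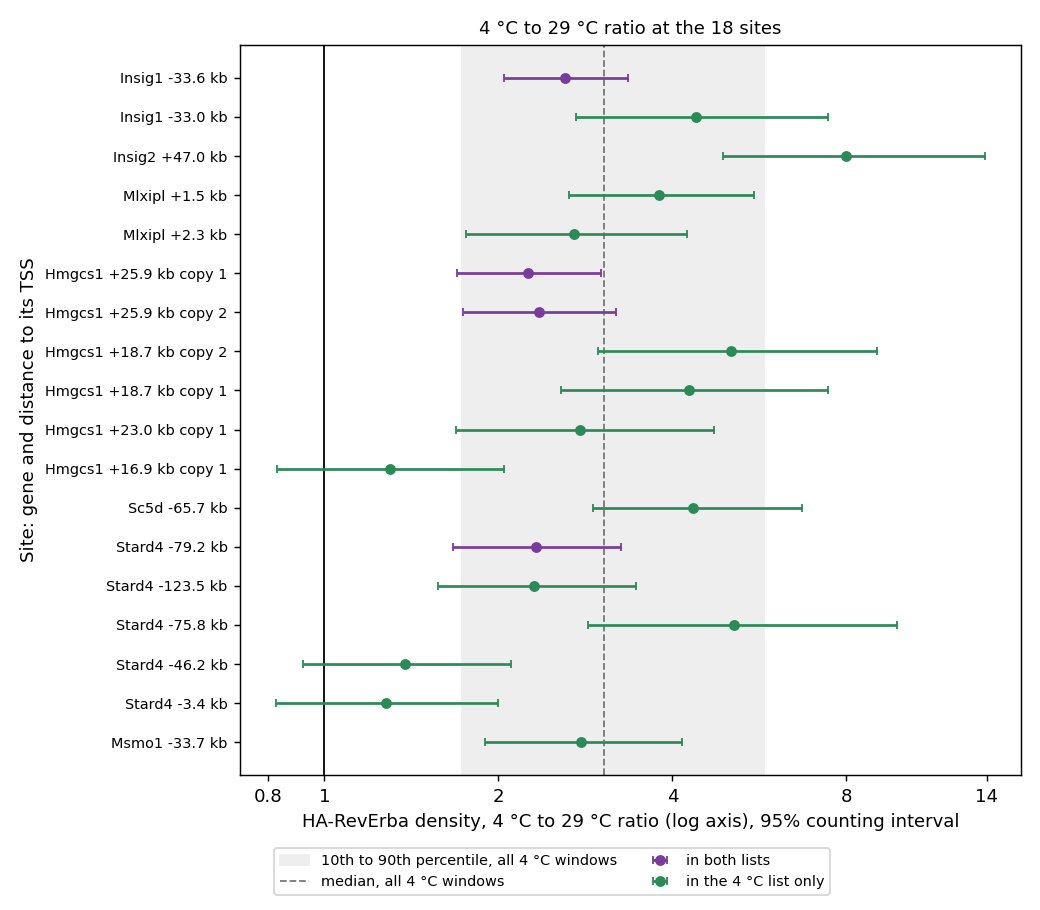
Ratio of HA-RevErba density at 4 °C to 29 °C (log axis) with 95% counting intervals at the 18 sites, purple for sites in both lists and green for those in the 4 °C list only. The grey band is the 10th to 90th percentile of all 4 °C windows (1.73 to 5.76) and the dashed line their median (3.05); 3 sites, 2 at Stard4 and 1 at Hmgcs1, have intervals across 1.

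At 9 of the 18 sites the HA-RevErba pool at 29 °C exceeded WT beyond counting error, against 41.5% of all 4 °C windows, a share near the background. These 9 were 4 of 5 Stard4 sites, 4 of 6 Hmgcs1 windows and 1 of 2 Insig1 sites. Every site of Insig2, Mlxipl, Sc5d and Msmo1 was among the other 9. At 29 °C only the 4 sites in both lists exceeded WT by 3 FPKM and 4-fold, against 13.6% of all 4 °C windows. These limits are close to the lowest values of the 29 °C list, so this count restates the overlap of the lists. The WT pools hold fewer reads, from 2 to 15 per window here, so a 29 °C signal under the intervals would not have been detectable at this depth. The WT pools themselves did not differ between temperatures beyond counting error at any of the 18 sites. Intervals of the sites overlapped widely, for example at Msmo1 and at Stard4 -3.4 kb, and whether the genes differ at 29 °C was not tested.

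**Figure D4:**
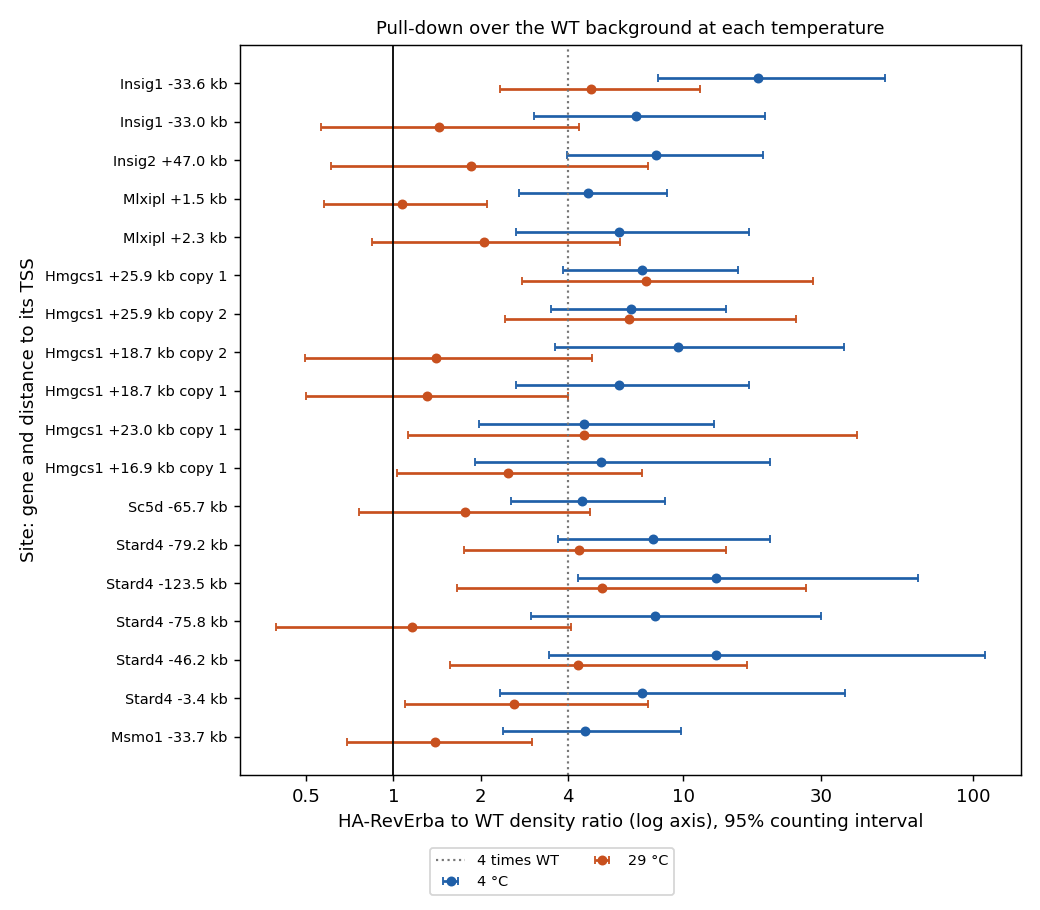
Ratio of HA-RevErba to WT density (log axis) with 95% counting intervals at 4 °C (blue) and 29 °C (orange); the solid line marks 1 and the dotted line 4 times WT, near the lowest ratio in either list. At 29 °C, 9 of 18 intervals reach 1 or less, including those of Insig2, Mlxipl, Sc5d and Msmo1.

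Other genes of sterol sensing, sterol synthesis, sterol transport and ChREBP action were counted from a list of 50. Of these, 15 had a site in the 4 °C list and 1, Abca1, in the 29 °C list. The share of 15 in 50 stands beside the 20.9% of all protein-coding genes, and 1 in 50 beside 6.05%. At the strongest site of each of the 15 the ratio was at least 2, with a median of 3.34 and a range of 2.34 to 6.55. Of all 4 °C windows 83.4% had such a ratio, and their median was 3.05. The 15 sites were picked by their 4 °C peak score, so this is no test. Of the genes of SREBP itself, Srebf1 had a single site at -10.9 kb. That site had 4.95 FPKM (4 °C) and 1.49 FPKM (29 °C) in HA-RevErba, against 1.12 and 0.81 in WT. At 29 °C it was 1.86 (0.612 to 7.54) times WT. Srebf2 had no site in either list. Scap, which escorts SREBP, also had none.

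The strongest sites of the list lay beside genes outside the synthesis pathway. Txnip, a ChREBP target that restrains glucose uptake, had 25.57 (4 °C) and 8.73 FPKM (29 °C) in HA-RevErba, and 4.80 and 4.59 in WT. Abca1, which exports cholesterol from cells, had 11 sites at 4 °C and 2 at 29 °C. Its strongest site, in the 4 °C list only, had 14.91 and 4.20 FPKM, against 3.33 and 2.20 in WT, a ratio of 3.55 (2.60 to 4.94). Mlxip, the gene of the ChREBP relative MondoA, had a ratio of 6.55 (4.21 to 10.6), with 12.40 and 1.90 FPKM. The cholesterol exporter gene Abcg1 followed with 9.89 and 2.97 FPKM. Ratios were 2.51 at Arrdc4, another ChREBP target, 2.34 at Mylip, which drives breakdown of the LDL receptor, and 2.38 at Erlin2, which takes part in INSIG turnover. Acat2, which makes acetoacetyl-CoA for sterol synthesis, had 8.17 and 2.15 FPKM, a ratio of 3.81 (2.46 to 6.11). At 29 °C the strongest sites of Abca1, Mlxip, Abcg1 and Acat2 were within counting error of WT. Those of Txnip, Arrdc4, Mylip and Erlin2 exceeded it.

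The strongest Insig1 site was compared with the strongest site of each of 5429 genes outside the lists, by Euclidean distance over the 4 pools on log2(FPKM + 0.5). The nearest was at Misp (distance 0.18), with 21.34 (4 °C) and 7.25 FPKM (29 °C) in HA-RevErba, and 1.12 and 1.41 in WT. Fam181b (0.278) and Gja1 (0.29), the gene of the gap junction protein connexin 43, came next, with 18.52 and 22.67 FPKM at 4 °C. With 4 pools as points, this says only that the 4 values were alike.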

How the data were processed

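Anti-HA ChIP-seq of mouse brown adipose tissue was analysed from 2 peak lists and 12 aligner logs. Groups came from the sample titles, which do not say that each library is 1 animal. The submitters' processing notes name Bowtie2 2.1.0, HOMER 4.10 and mm9 but do not say what each was used for. Per the file headers, peaks were listed on pooled libraries, 1 list per temperature, with the authors' annotation and values in 4 pools. These deposited FPKM are read densities of peak windows with 0.01 added. A deposited peak score, made by the authors, served only to rank sites within a list. Less 0.01, all FPKM were whole multiples of 1 step per pool (tolerance 0.01 FPKM), which gave the reads behind each value. The value of 3 reads was 0.235 (4 °C) and 0.247 FPKM (29 °C) in HA-RevErba, and 0.553 and 0.598 FPKM in WT.

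For shared sites the 4 °C window was used. Coordinates were left unchanged, and the sources used here do not state whether starts count from 0 or 1. Host genes were found by matching RefSeq accessions to a gene table of GRCm38.p6, which matched 50 of 50 listed genes. The same table gave the gene identifiers of the lists and the 21900 protein-coding genes behind the shares of all genes. Each named site is a member, a gene of the list of 50 with a 29 °C site or among its 8 strongest, or 1 of the 3 sites nearest to Insig1; Srebf1, Srebf2 and Scap were named after their values were seen. The members and lists were chosen with earlier results of these data known. Recovery of reads and intervals was tested on simulated data. Python 3.11.15, pandas 2.3.3 and scipy 1.17.1 were used. Peak sequences on mm9 and the promoter of Stard4 were not used here, and 1 gene of the list is not reported by name.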

Additional observations from a re-analysis of the deposited data

How the results depend on the processing

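No replicate could be left out and no count model run, since each pool is 1 value. No paired analysis was possible because the libraries were pooled before values were deposited. The counts of sites depended on the limits: with at least 6 FPKM over WT they were 11 at 4 °C and 1 at 29 °C, and within 10 kb of the TSS 3 and 0. Without the unplaced contig that holds Hmgcs1, an alternative chosen after seeing the data, 2 sites were in the 29 °C list, 2 were shared and 2 exceeded WT by 3 FPKM and 4-fold at 29 °C. The count of ratios of at least 2 fell from 15 to 7 with WT reads equal over shared windows or over all 29 °C windows, and to 9 with 2 FPKM added to both values. The median ratio of 2.74 became 1.90 and 1.60 under those WT scalings, and 2.46 and 2.02 with 0.5 and 2 FPKM added. The same WT scalings turned the ratio to 0.888 and 0.750 at Stard4 -3.4 kb, 0.961 and 0.812 at Stard4 -46.2 kb, and 0.901 and 0.761 at Hmgcs1 16.9 kb. Those scalings use windows listed for exceeding WT at 29 °C, and all 4 °C windows were listed for exceeding WT at 4 °C. The part of either selection was not tested. At the strongest site of each gene, 42 alternative values ran from 1.32 to 8.11 and 0 of them turned direction, but 13 lay outside the counting interval of the reported ratio. The scaling over all 29 °C windows moved the ratio from 2.61 to 1.53 at Insig1, 8 to 4.69 at Insig2, 3.79 to 2.22 at Mlxipl, 2.25 to 1.32 at Hmgcs1, 4.35 to 2.55 at Sc5d, 2.32 to 1.36 at Stard4 and 2.78 to 1.63 at Msmo1. The other 23 alternatives to a count or median, counting Hmgcs1 copies as 1 site among them, stayed within limits that differ for counts and medians. The limit for counts is wide: without the unplaced contig, 18 sites at 4 °C became 12. Counts stayed within 1.5 times the reported count. Medians stayed between 2.51 and 2.99, the relative counting interval of the summed reads. Not all of these could differ: keeping sites with HA-RevErba above WT at 29 °C kept all 18. Scaling factors of 1.02 (WT reads over all 4 °C windows) and 0.986 (aligned reads) could change little.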
